A study of Mus musculus with 2 samples.

Results

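The carbonic anhydrases described here were the 9 genes Car1, Car2, Car3, Car4, Car5b, Car8, Car9, Car12 and Car13. They were found in the deposited gene and transcript tables by their GENCODE mouse identifiers, and they made up 9 of 43346 gene entries. All 9 matched. The other 7 protein-coding genes of the family, Car5a, Car6, Car7, Car10, Car11, Car14 and Car15, were taken alongside them, so that the levels could be set within a family of 16 genes.

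The RNA came from G1E-ER4, an immortalized mouse erythroid line without a working Gata1 gene of its own, which codes for the transcription factor that drives red cell maturation. The line carries Gata1 fused to the ligand-binding domain of the estrogen receptor, and estradiol activates the fusion. There was 1 group: 2 libraries of polyA RNA from cells kept for 7 h in 10 nM 17beta-estradiol, numbered in the labels as biological replicates 1 and 2. Because the labels of both libraries point to 1 biological sample record, their spread, and any p-value below, may be technical only. The labels describe a single line, postnatal and male, and no untreated or other time point was analysed here, so a level below says what was present after treatment and not whether estradiol changed it.

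Carbonic anhydrases are zinc enzymes that interconvert CO2 and water with bicarbonate and a proton. In red cells, cytosolic carbonic anhydrase works with the band 3 anion exchanger, so that CO2 taken up in the tissues travels in plasma as bicarbonate. The family holds cytosolic enzymes (Car1, Car2, Car3, Car7, Car13), mitochondrial enzymes (Car5a, Car5b), a secreted enzyme (Car6), membrane-bound enzymes (Car4, Car9, Car12, Car14, Car15) and related proteins without the enzymatic activity (Car8, Car10, Car11).

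The zinc of the active site is held by 3 histidines, and a pair of them sits in a short conserved stretch. The coding bases around this stretch are shown for the 4 cytosolic enzymes whose genes lie side by side on chromosome 3, to show how alike and how distinct these neighbouring genes are. Capitals mark 12 bases that match the codons CAN, NTN, CAN and TGG in that order, in which N is any base. In these genes the 2 CAN codons encode those histidines, and TGG encodes a tryptophan. The pattern was chosen after the sequences had been seen.
Car2, coding bases 271 to 300: atccagtttCACTTTCACTGGggctcatct
Car1, coding bases 274 to 303: actcagttcCATTTTCACTGGggcaactca
Car3, coding bases 271 to 300: cgccaattcCATCTTCACTGGggctcctct
Car13, coding bases 274 to 303: cggcagttcCATTTGCACTGGgggtcagca

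Read in frame on the coding strand, the pattern was present in 8 of the 9 genes and in 13 of the 16 of the family, against 0.885% of all protein-coding genes (191 of 21584 coding sequences). The 3 family genes without it were Car8, Car10 and Car11, the related proteins without enzymatic activity. Over their whole coding sequences the 4 neighbouring genes were 62.4% to 65.9% identical in pairs. The longest run of bases that any pair of their transcripts shared was 30, between Car2 and Car13, and the other pairs shared runs of 12 to 20. Read length was not given in the sources used here, and reads inside such a run could not be told apart by sequence alone.

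Levels are given in the authors' TPM, a unit divided by transcript length, so that genes can be compared with each other. Counts are the authors' expected counts, estimates of fragments per gene. The libraries held 59610963 and 44689404 expected counts. Detection here means that each of the 2 libraries reached a TPM of 1. By that measure 3 of the 9 genes (33.3%) were detected, against 38.3% of the 21474 protein-coding genes. At a TPM of 5 Car3 would not count as detected. Of the erythroid markers examined, 7 of 8 were detected, with a summed TPM of 9155 in replicate 1 and 5959 in replicate 2, and Epb42 was below the threshold. Of the markers of 6 other cell types (megakaryocyte, myeloid, lymphoid, mast cell, endothelial and stromal), 7 of 23 were detected, 6 had 0 counts in both libraries, and the summed TPM was 129 and 135.

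The family was carried almost wholly by the 2 red cell enzymes. Car2, the high-activity cytosolic enzyme, and Car1, the lower-activity enzyme that is abundant in mature red cells, together held 99.1% of the summed TPM of the family in replicate 1 and 99.0% in replicate 2. Car3, a cytosolic enzyme best known from muscle and fat, came next, with 0.600% and 0.650%. The summed TPM of the whole family was 614 and 653 (633 ± 27.4, SD, n = 2).

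Car2 (ENSMUSG00000027562) had a TPM of 397.74 in replicate 1 and 421.06 in replicate 2, from 21835 and 19312 counts. Its mean was 409 ± 16.5 (SD, n = 2), which placed it at rank 342 among protein-coding genes. The genes nearest to Car2 in level over both libraries were Napa (393.77 and 418.77), Nudt9 (394.63 and 416.98) and Fkbp4 (409.67 and 426.02). The distance was Euclidean in log2(TPM + 1) over the 2 libraries, and came to 0.0164 for Napa, 0.0180 for Nudt9 and 0.0458 for Fkbp4. With only 2 libraries of 1 condition, this measures a like level and nothing more.

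Car1 (ENSMUSG00000027556) had a TPM of 210.39 in replicate 1 and 225.05 in replicate 2, from 10910 and 8209 counts. Its mean was 218 ± 10.4 (SD, n = 2), at rank 690. Tssc4 (209.29 and 229.43), Mbnl1 (215.0 and 225.15) and Rrs1 (204.71 and 224.32) were nearest to it in level. Car2 stood above Car1 in both libraries without overlap: the ratio of their TPM values was 1.89 and 1.87 (1.88 ± 0.0138, SD, n = 2). The coefficient of variation between the libraries was 4.03% for Car2 and 4.76% for Car1, against a median of 17.6% over the 8219 detected protein-coding genes.

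The evenness of Car2 in TPM was not seen in its counts. By counts, Car2 exceeded Car1 2.00-fold in replicate 1 and 2.35-fold in replicate 2 (2.18 ± 0.248, SD, n = 2). The effective length by which the authors' TPM is divided was 1083 bases for Car2 in replicate 1 and 1298 bases in replicate 2, while for Car1 it was 1023 and 1032 bases. The difference for Car2 moves with the mix of its transcripts, described below. The TPM ratio to Car1 includes a short transcript of Car2. The full-length Car2-201 alone had a TPM of 215.77 and 299.71, against 210.39 and 225.05 for Car1 as a gene. On that basis Car2 lay close to Car1 in replicate 1 and further above it in replicate 2.

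Car3 (ENSMUSG00000027559) had a TPM of 3.68 in replicate 1 and 4.24 in replicate 2 (3.96 ± 0.396, SD, n = 2). It rested on 124 counts (95% exact Poisson interval 103 to 148) and 101 counts (82.3 to 123). Car3 was thus detected in both libraries, at a level 57.2-fold below Car1 in replicate 1 and 53.1-fold below it in replicate 2. Intervals of counts, here and below, cover counting error only.

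Car13 (ENSMUSG00000027555), a broadly expressed cytosolic enzyme, had 37 counts (26.1 to 51.0) and 22 counts (13.8 to 33.3), with a TPM of 0.34 and 0.29 (0.315 ± 0.0354, SD, n = 2). Car5b (ENSMUSG00000031373), on chromosome X at 163976822 to 164027997 and the mitochondrial enzyme among the 9, had 15 counts (8.40 to 24.7) and 13 counts (6.92 to 22.2), with a TPM of 0.09 and 0.11 (0.100 ± 0.0141, SD, n = 2). Both genes gave counts in both libraries and lay well under the detection threshold. Car13 was 3.15-fold above Car5b by the means, and the libraries of the pair did not overlap, but the authors' intervals of TPM for the pair did. All other steps in the order Car2, Car1, Car3, Car13 were separated in both the libraries and the authors' intervals.

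The remaining 4 genes, Car4, Car8, Car9 and Car12, had 0 counts in both libraries. Car4 is anchored to the outer face of the plasma membrane, and Car9 and Car12 are transmembrane enzymes with their active site outside the cell. Car8 is a related protein without enzymatic activity that binds the inositol trisphosphate (IP3) receptor. With a limit of 3 counts for a count of 0 (the upper end of the two-sided 95% exact Poisson interval is 3.69), the levels allowed were a TPM of up to 0.113 and 0.159 for Car4, 0.0160 and 0.0229 for Car8, 0.0846 and 0.119 for Car9, and 0.0310 and 0.0442 for Car12. Against those limits of 3 counts Car2 was at least 2652-fold higher than Car4, 3527-fold higher than Car9, 9532-fold higher than Car12 and 18395-fold higher than Car8, taking the smaller bound of the 2 libraries for each. The authors' posterior mean TPM, an estimate that is not 0 even where the count is 0, was 0.28 and 0.39 for Car4, 0.40 and 0.54 for Car9, 0.10 and 0.14 for Car12, and 0.01 and 0.01 for Car8. For Car4, Car9 and Car12 those means exceeded the limits of 3 counts, so by that measure Car2 was fewer-fold above them than stated. The upper end of the authors' interval for Car9 reached 0.744 in replicate 1 and 1.01 in replicate 2, so by that measure replicate 2 did not place Car9 below the detection threshold.

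None of the 7 other family genes was detected, and their summed TPM was 1.52 and 1.82. The mitochondrial Car5a had 17 and 12 counts and a TPM of 0.36 and 0.78 (0.570 ± 0.297, SD, n = 2). Its effective length was 920 bases in replicate 1 and 437 bases in replicate 2, so the higher TPM of replicate 2 came with fewer counts. Car11 had a TPM of 0.51 and 0.46, and the membrane-anchored Car15 had 0.42 and 0.48. Car5a, Car11 and Car15 overlapped between libraries and could not be ordered. The cytosolic Car7 had 17 counts in replicate 1 and 4 in replicate 2, with a TPM of 0.23 and 0.08 that overlapped those of Car5b. Car6 had 0 counts and 1 count, and Car10 and Car14 had 0 in both libraries.

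**Figure D1:**
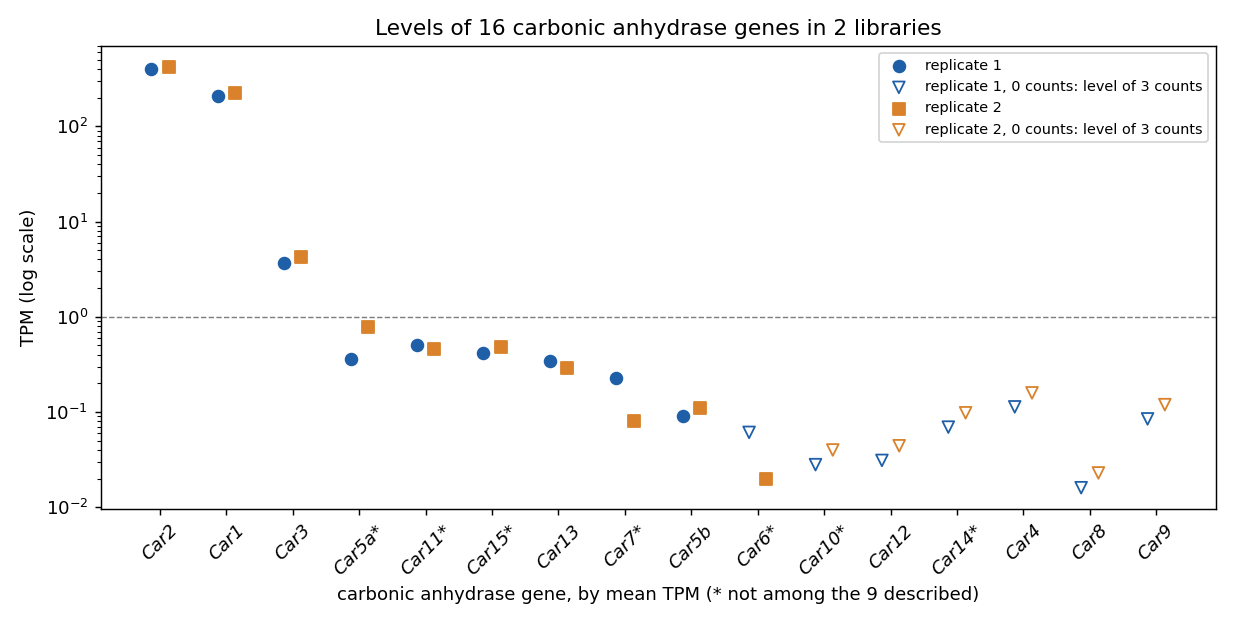
TPM of the 16 carbonic anhydrase genes (log axis) in each library, with filled points for genes with counts, open triangles for the TPM that 3 counts would give where the count was 0, and a dashed line at the detection threshold of 1. Car2 (397.74 and 421.06), Car1 (210.39 and 225.05) and Car3 (3.68 and 4.24) are the genes above the line, and the points of the 2 libraries nearly coincide for Car2 and Car1.

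The test between the libraries compared replicate 2 with replicate 1 and says nothing about conditions. It was an exact two-sided binomial test of the rounded counts against the ratio of library sizes scaled by TMM, and p-values were adjusted by Benjamini-Hochberg over all 11285 genes that had at least 10 counts. Calls needed a fold of at least 2 as well as an adjusted p under 0.05. Of the 5 genes with enough counts (Car1, Car2, Car3, Car5b and Car13), 0 were called, where 11.2% of all genes tested were called, 2.79% as higher and 8.41% as lower in replicate 2. Of all calls, 24.9% were higher in replicate 2, and with scaling by total counts 10.4% were. At an adjusted p under 0.05 and any fold, 2 of the 5 differed, against 68.0% of all genes tested. The exact test of edgeR with the spread of the pair called 0 of the 5, against 0.913% of all genes. The dispersion in that test came from the pair being compared, which leaves room for few calls, and the 0 does not show that the libraries were alike.

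The 2 that differed below the fold threshold were Car2 and Car1. The log2 ratio of replicate 2 over replicate 1 in scaled counts was 0.45 for Car2 (exact binomial test, adjusted p = 2.06e-213) and 0.21 for Car1 (adjusted p = 1.37e-23). At any fold, 68.0% of all genes tested had an adjusted p under 0.05. Counting noise is the only error this test holds. Scaling by total counts moved the median of all genes by -0.21, and with it the log2 ratio became 0.24 for Car2 (exact binomial test, adjusted p = 1.02e-61) and 0.01 for Car1 (adjusted p = 0.841). The log2 ratio was 0.33 for Car3 (adjusted p = 0.122 by the exact test), 0.40 for Car5b and -0.12 for Car13, within counting noise for all 3 genes.

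The 4 neighbouring cytosolic genes lie in a run of 259044 bases of chromosome 3 (mm10), in the order Car13, Car1, Car3, Car2. Car13 spans 14641727 to 14663002 on the plus strand, Car1 14766216 to 14808368 on the minus strand, Car3 14863512 to 14872523 on the plus strand and Car2 14886273 to 14900770 on the plus strand. The gaps between them are 103213, 55143 and 13749 bases. Levels did not follow this order evenly: Car3, at 3.96 ± 0.396 (SD, n = 2), lay between the 2 abundant genes, and was 108-fold and 99.3-fold below Car2, the neighbour only 13749 bases away.

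Outside the run, the nearest protein-coding genes on the Car13 side were 1810022K09Rik, with a TPM of 9.18 and 6.09, and E2f5, a cell-cycle transcription factor, with 6.22 and 10.36. Both were detected, and both exceeded Car13 and Car3 in each library. On the Car2 side, Gm9733 and Sirpb1a had 0 counts in both libraries, as did the pseudogenes Gm5843 and Gm16399 within the run. Across these entries from E2f5 to Sirpb1a, Car1 and Car2 were the 2 genes of high level, with genes of low or zero count on either side and between them.

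The transcript tables divided the genes' levels among annotated transcripts. For Car1, Car1-201 and Car1-203 carry the same coding sequence and differ at their 5′ end, where Car1-203 starts 29906 bases further upstream. Only 51 bases are found in Car1-201 alone and 65 in Car1-203 alone, while 1129 are shared. Car1-201 had a TPM of 123.36 in replicate 1 and 206.27 in replicate 2, which was 58.6% and 91.7% of the gene. Car1-203 had 85.33 and 17.49, which was 40.6% and 7.77%.

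The gene's level was alike in the libraries while the split between these transcripts was not. The authors' intervals for Car1-203, 72.4 to 97.1 in replicate 1 and 12.5 to 22.4 in replicate 2, did not overlap. The share of Car1-201 rested on which library was used, and its mean of 75.1% ± 23.3 (SD, n = 2) has a wide error. A change of at least 33.0 points in the share of the leading transcript was seen in 7.06% of 5979 protein-coding genes with several transcripts and at least 100 counts in each library, where the median change was 6.67 points.

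For Car2, the full-length Car2-201 had a TPM of 215.77 in replicate 1 and 299.71 in replicate 2, which was 54.2% and 71.2% of the gene. Car2-202 starts 155 bases further upstream and ends within exon 3 of Car2-201, so that it is a transcript of 587 bases. It had a TPM of 181.12 and 121.04, which was 45.5% and 28.7%. By counts, which are not divided by length, Car2-201 held 81.7% and 90.2% of the gene. The change of 16.9 points in the TPM share of Car2-201 was reached by 22.8% of the 5979 genes. A TPM of 181.12 and 121.04 within the level of Car2 was thus assigned to a transcript that lacks the last 4 of the 7 exons of Car2-201.

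For Car3, nearly all of the level was assigned to Car3-203, which the annotation classes as a retained intron and not as coding. Car3-203 had a TPM of 3.61 and 4.18, or 98.1% and 98.4% of the gene, from 118.41 and 97.36 counts. The coding transcript Car3-201 had a TPM of 0.07 and 0.07, from 5.59 and 3.64 counts. Taken by its coding transcript alone, Car3 was therefore below the detection threshold in both libraries. Car3-203 starts 5640 bases downstream of the start of Car3-201, shares 747 bases with it and has 57 bases of its own, all at its 5′ end. Those 57 bases are intron 5′ of the fifth exon of Car3-201. At the other end, Car3-203 stops at 14872069, short of the end of Car3-201 at 14872523. The first exon of Car3-203 is shown because it holds the 57 bases that Car3-201 lacks. It lies at chr3:14869178-14869297 on the plus strand of GRCm38, with the intron bases in capitals and the shared exon in lower case.
Car3-203, first exon: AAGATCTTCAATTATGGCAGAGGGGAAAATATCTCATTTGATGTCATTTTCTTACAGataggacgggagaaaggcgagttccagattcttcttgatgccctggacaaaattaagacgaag

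The capitals end in AG, the last bases of an intron, before the exon begins. Whether fragments lay on the 57 intron bases or on the 932 bases found in Car3-201 alone was not read here, since the tables give estimates per transcript and not positions of reads. Of the 2 genes under the threshold, Car13 has a single annotated transcript. Car5b-201 held 88.9% and 100% of Car5b by the rounded TPM values, and 93.3% and 100% by counts.

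**Figure D2:**
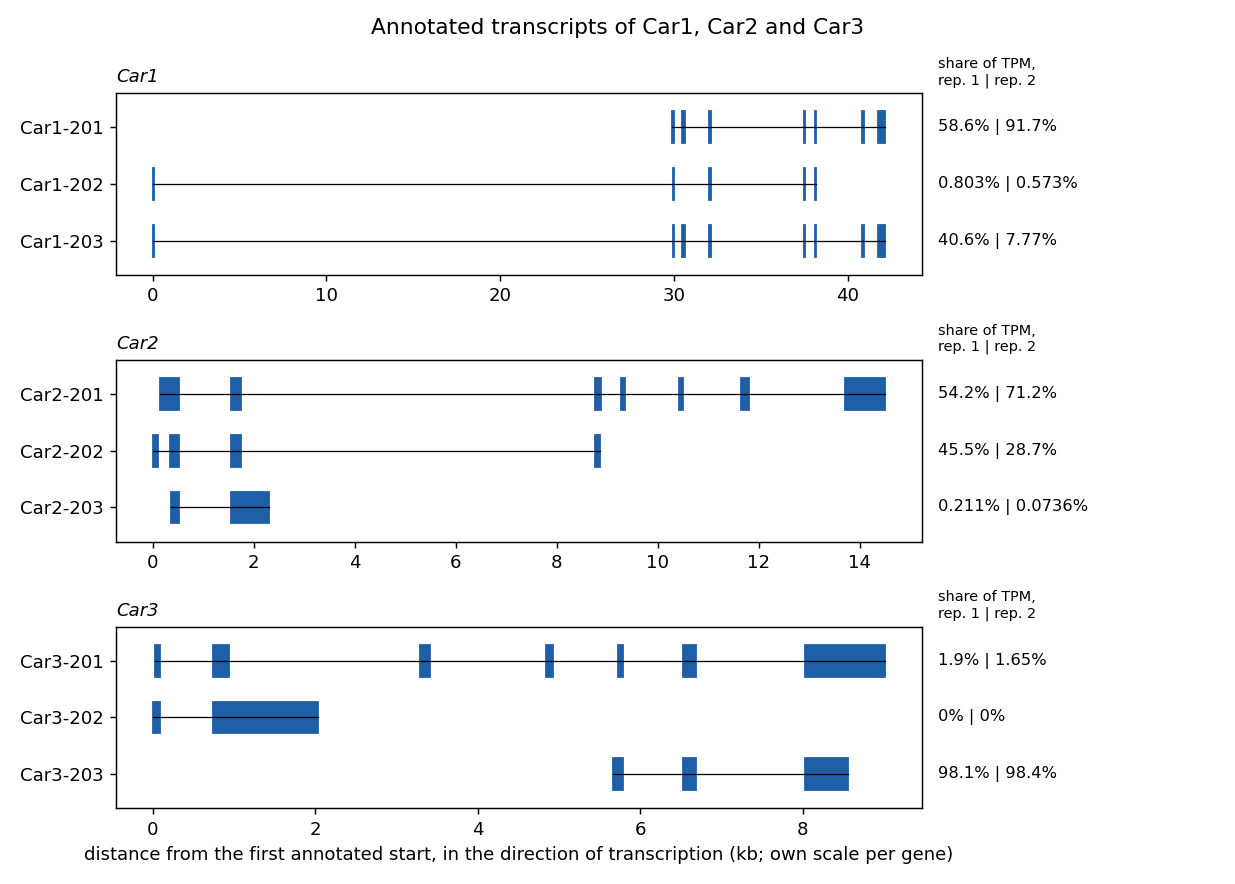
Exons of the transcripts of Car1, Car2 and Car3, drawn by distance from the start of the gene in its direction of transcription, with each transcript's share of the gene's TPM in the 2 libraries at the right. Car1-203 and Car1-201 start 29906 bases apart, and Car2-202 ends within exon 3 of Car2-201. Car3-203, with 98.1% and 98.4% of the gene, lies toward its 3′ end and stops before Car3-201 does.

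**Figure D3:**
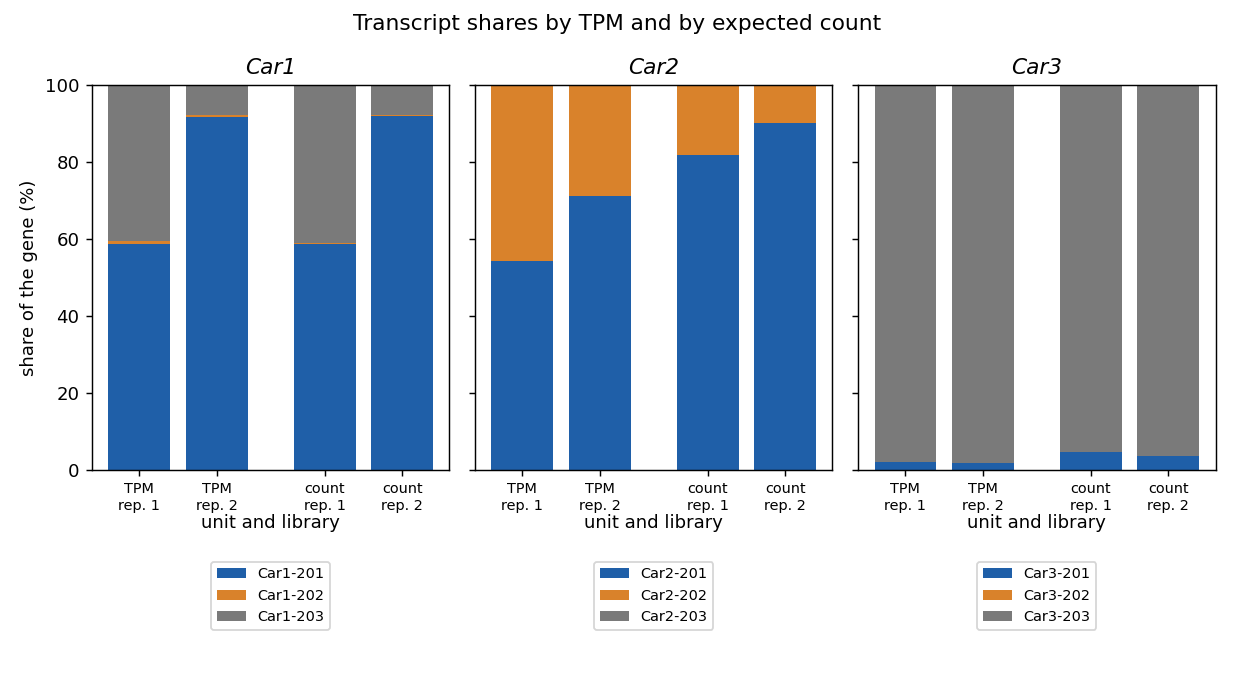
Share of each gene's level (percent, axis from 0 to 100) held by each transcript of Car1, Car2 and Car3, by TPM and by expected count in each library. Car1-201 goes from 58.6% to 91.7% by TPM between the libraries, and Car2-201 is larger by count (81.7% and 90.2%) than by TPM (54.2% and 71.2%).

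Genes that move bicarbonate, protons and gases were examined beside the enzymes. Of the 24 on the list, 11 (45.8%) were detected, against 38.3% of all protein-coding genes. Counts were 0 in both libraries for 5 of the 24, against 39.5% of all protein-coding genes. The median TPM was 0.405, against 0.03 over all protein-coding genes, and both medians lay under the detection threshold. Among the most abundant were Bsg, the chaperone of monocarboxylate transporters, at 744.13 and 834.69 (789 ± 64.0, SD, n = 2), and the lactate and proton carrier Slc16a1, at 89.9 and 83.84 (86.9 ± 4.29). The scaffold protein Slc9a3r1 stood at 74.81 and 47.99.

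Slc4a1, the band 3 anion exchanger that works with carbonic anhydrase in mature red cells, was below the threshold, at a TPM of 0.52 and 0.36. The anion exchanger Slc4a2 was detected at 25.58 and 32.5. The water channel Aqp1, abundant in mature red cells, had 3 and 0 counts. At 7 h in estradiol Car2 and Car1 thus stood far above Slc4a1 in both libraries, without overlap. Of the 15 genes of the list with enough counts for the test between the libraries, 1 was called, the water and glycerol channel Aqp3 (8.47 and 2.79, log2 ratio -1.48, exact binomial test, adjusted p = 2.87e-37), against 11.2% of all genes.

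Car9 and Car12 are known as genes induced by low oxygen, so other hypoxia-inducible genes were examined. Of 15, 12 (80.0%) were detected, against 38.3% of all protein-coding genes, with a median TPM of 26.9. Egln3 and Adm had 0 counts in both libraries, and Ndrg1, with 5 and 3 counts, was below the threshold. Ldha, which makes lactate from pyruvate, stood highest at 2551.05 and 1983.89 (2267 ± 401, SD, n = 2), followed by the glucose transporter Slc2a1 at 132.26 and 109.08, the mitophagy receptor Bnip3 at 106.85 and 111.35, and the growth factor Vegfa at 90.27 and 93.55. Car9 and Car12, at 0 counts, thus differed from most of that list but not from Egln3 and Adm. Whether the cells were low in oxygen was not tested. The 3 IP3 receptor genes, whose proteins bind IP3 and include the partner of Car8, were all detected: Itpr2 at 4.12 and 2.51, Itpr3 at 1.46 and 1.74, and Itpr1 at 1.35 and 1.23. Car8 itself had 0 counts in both libraries.

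**Figure D4:**
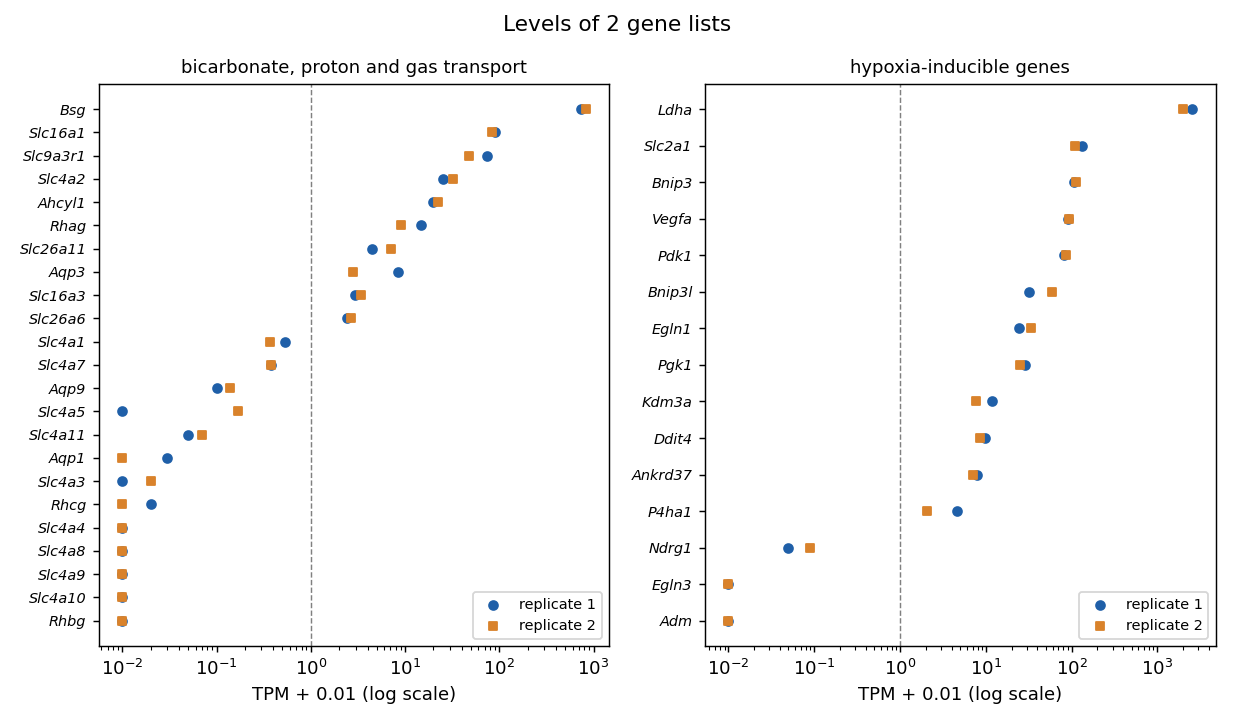
TPM of genes of the transport list (left) and the hypoxia-inducible list (right) in each library, on a log axis with an offset of 0.01 so that genes at 0 can be drawn, with a dashed line at the detection threshold. Bsg (744.13 and 834.69) and Ldha (2551.05 and 1983.89) are highest, and Slc4a1 (0.52 and 0.36) lies left of the line.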

How the data were processed

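For each library the authors deposited a gene table and a transcript table, on mm10 with the GENCODE M4 annotation per the notes deposited with the files. Aligner and quantifier: not given in the sources used here. In the tables the authors' expected counts are fragment estimates without normalization, rounded here for tests. The deposited TPM values were divided by effective length and scaled to a common total. The deposited FPKM values entered only an alternative. The deposited percent values of transcript share were read, and shares were computed anew from transcript TPM. Interval ends of TPM are the authors', and they surround the authors' posterior mean, so a TPM can lie just outside.

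Names, positions, exons and sequences came from GENCODE M21 on GRCm38, the assembly of mm10. Of 43346 gene entries, 42462 matched. Errors are SDs over 2 libraries. Log2 ratios carried a prior count of 0.5. Tests used edgeR 4.0.16 (TMM), with DESeq2 1.42.0 size factors as an alternative, in R 4.3.3 and Python 3.11.15. The binomial test between the libraries was checked on simulated data that held counting noise only. That check does not cover the spread beyond counting noise in this pair. Alternatives covered scaling, count filter, prior count, unit, estimate, detection threshold and omission of each library.

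The members, lists and tests were chosen with earlier results of these data known. Named were all family genes, the 2 nearest protein-coding genes on each side of the run on chromosome 3, the 4 most abundant genes of each other list with any a statement turned on, transcripts with at least 5% of a detected gene, and the 3 genes nearest in level to Car2 and to Car1. Car3-201, under 5%, was named after its value was seen. A gene of the transport list, counted in the list's totals, is not reported here.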

Additional observations from a re-analysis of the deposited data

How the results depend on the processing

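The ratio of Car2 to Car1 was 2.18 by expected counts. The share of Car2 and Car1 in the family was 98.8% by posterior mean TPM, 99.3% by expected counts and 99.3% over the 9 genes only. With at least 10 counts in both libraries in place of a TPM threshold, 5 of the 9 genes were detected. At a TPM of at least 5, 2 of the 9 were, without Car3, and 7 transport genes were. By counts the mean share of Car2-201 was 85.9% and that of Car3-203 was 95.9%, and by posterior mean TPM that of Car3-203 was 97.1%. With only 2 libraries, leaving out each in turn gives the value of the other library and is no check of stability. These values ranged from 210.4 to 225.1 for Car1, 397.7 to 421.1 for Car2, 1.87 to 1.89 for their ratio, 58.6% to 91.7% for Car1-201, 54.2% to 71.2% for Car2-201 and 98.1% to 98.4% for Car3-203. Over all genes, 1264 were called different between the libraries, against 103 by edgeR's exact test with the spread of the pair. Depth limits the genes at 0 and the transcripts of Car3, Car5b and Car13, which rest on at most 124 counts. No paired analysis was possible because there was only 1 group.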
